A study of Mus musculus with 8 samples.

Results

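Peroxisome biogenesis genes and peroxisomal lipid enzymes were examined in the epididymal white fat of male mice, the depot beside the testis. The set was a fixed list of 34 gene symbols matched by gene identifier to GENCODE M21, an annotation of the mouse build GRCm38, and all 34 were found among the 24821 genes of the deposited table. It held 12 peroxins, the PEX proteins that build the organelle, and 22 enzymes, transporters and membrane proteins. Messenger RNA was sequenced from 4 knockout samples lacking Ccdc92 (KO) and 4 wild-type samples (WT), 1 library per sample, to ask how loss of Ccdc92, a coiled-coil protein gene in a human fat distribution locus, alters expression in fat. All samples came from males on a C57BL/6 background, the WT animals being littermates of like age. All had received a diet with 60% of its calories as fat, 20% as protein and 20% as carbohydrate for 14 weeks. Which part of Ccdc92 was deleted, and whether it was deleted in all tissues, is not given in the sources used here. The labels do not tie libraries to animals, and the p-values therefore speak only of the spread between these samples, part or all of which may be technical.

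Peroxisomes are single-membrane organelles that shorten very long and branched fatty acids, begin the synthesis of ether lipids such as plasmalogens, and break down the hydrogen peroxide that their oxidases produce. Their matrix proteins are made in the cytosol and imported folded by peroxins, which recognise short targeting signals, and their membrane proteins are inserted by a separate set of peroxins. In adipocytes the organelles lie close to lipid droplets, and many of their lipid enzymes are targets of the PPAR family of nuclear receptors.

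The libraries held 23681088 to 33817478 reads assigned to genes. Ccdc92 had normalized counts of 54.1, 68.3, 105.8 and 99.2 in WT replicates 1 to 4 and of 9.2, 5.1, 9.7 and 4.9 in KO replicates 1 to 4, so the targeted gene was lower in every KO library. Of 20 adipocyte markers, 16 rose in KO and 0 fell, and their summed normalized count lay between 353446.9 and 744774.3 in WT and between 1587713.6 and 2006526.6 in KO. Macrophage markers went the opposite way, with 18 of 20 lower, 1 higher and sums of 242309.0 to 583834.8 in WT against 63219.4 to 99087.7 in KO. Transcripts of the epididymis, the duct beside this depot, summed over 13 genes to 54647.7 to 120080.3 in WT and 10.8 to 1343.7 in KO, with Defb43 at 0 in all KO libraries and Lcn9 at 0 in all WT libraries. Some genes of that list had been seen to differ in these libraries before they were listed. Of 10 endothelial markers 6 rose and 0 fell, with sums between 19535.3 and 36790.7 in WT and between 42892.5 and 50097.7 in KO. Of 10 fibroblast and progenitor markers 4 fell and 0 rose. Their sums lay between 186889.5 and 312470.4 in WT and between 108415.1 and 211449.5 in KO. For comparison with these marker counts, 20.2% of the 17798 genes tested rose and 21.5% fell. WT replicate 3 also carried hepatocyte transcripts. Albumin (Alb) stood at 35472.2 there, at 31.2 to 61.5 in the other WT libraries and at 407.5 to 843.4 in KO, and 15 of 15 hepatocyte genes, listed after these values had been seen, were highest in that library. KO replicate 3 had 5.78% of its reads in the haemoglobin gene Hbb-bs. In whole tissue, fewer cells of a type and less RNA per cell cannot be told apart.

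Peroxin messages were moderately higher in KO fat. By limma, 9 of 12 rose and 0 fell, with a median log2 fold change of 0.68. Of the 17798 genes tested, 20.2% rose and 41.7% changed in either direction, and their median was -0.01. For the count of 0, limma, edgeR and DESeq2 each found 0 peroxins lower at an unadjusted p under 0.05. Every KO library exceeded every WT library in 10 of the 12, against 21.0% of all genes (42.1% separate in either direction). The summed normalized count of the 12 lay between 12008.7 and 16963.8 in WT and between 21521.7 and 26670.8 in KO. Within WT, replicate 1 held the lowest value of 10 of the 12 peroxins, and it also had the lowest adipocyte sum (353446.9) and the highest macrophage sum (583834.8). The part of these cell markers in the peroxin result was not tested. All fold changes compare KO with WT after log2(normalized count + 1), and the threshold was an adjusted p of 0.05 (Benjamini-Hochberg, all tested genes).

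**Figure D1:**
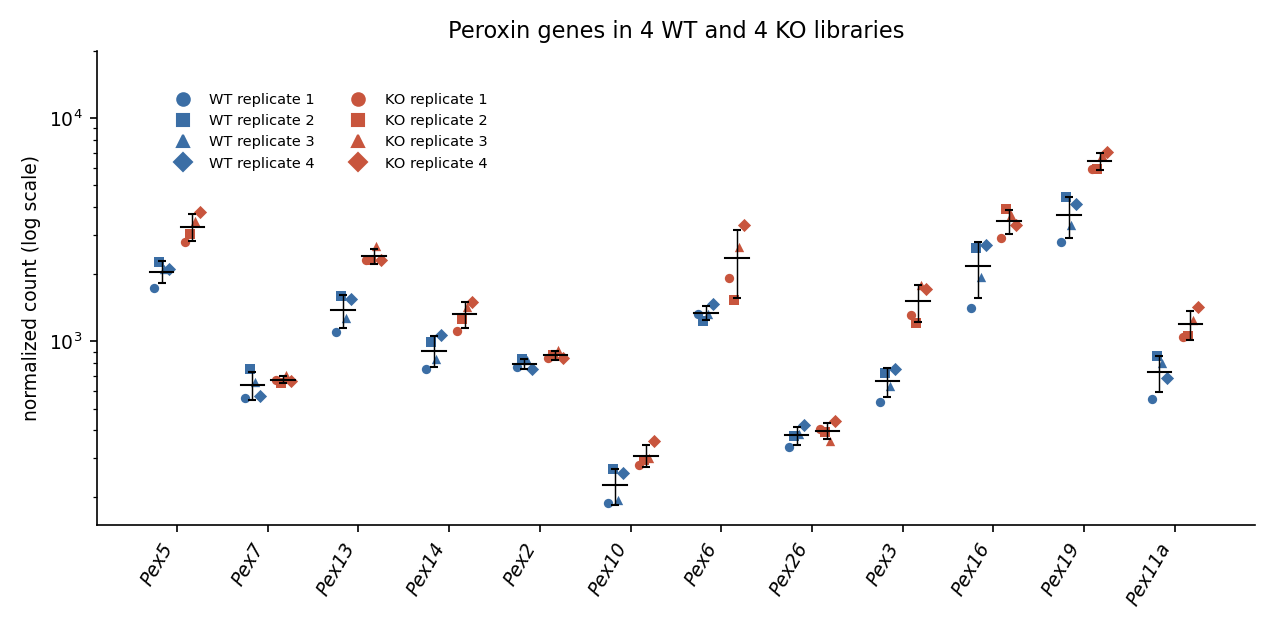
Normalized counts of the 12 peroxins (log axis) in 4 WT (blue) and 4 KO (red) libraries, marker shape giving the replicate number and black bars the mean with SD. Pex3 shows the widest gap between the groups, and the groups overlap in Pex7 and Pex26.

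Genes for inserting membrane proteins rose in 3 of 3, where 20.2% of all genes tested rose. Pex3, the membrane docking factor (chromosome 10, 13523842 to 13553142, minus strand), had normalized counts of 534.8, 725.1, 633.1 and 755.6 in WT and of 1318.0, 1213.5, 1794.0 and 1712.4 in KO. Its log2 fold change of 1.18 (limma adjusted p = 0.0010, SE 0.16) was the largest among the peroxins, and the groups lay far apart. Pex19, the cytosolic chaperone that delivers membrane proteins to Pex3, had 2774.0, 4422.7, 3331.7 and 4116.1 in WT and 5914.5, 5934.8, 6809.5 and 7025.5 in KO. All KO libraries were above the highest WT library, with a log2 fold change of 0.83 (limma adjusted p = 0.0034, SE 0.15). Pex16, which recruits Pex3 to the membrane, stood at 1409.9, 2630.2, 1950.4 and 2707.8 in WT and 2915.3, 3915.5, 3663.2 and 3303.5 in KO. Its WT libraries were widely spread, and the lowest KO library was only slightly above the highest WT library (0.70, SE 0.21, limma adjusted p = 0.026). Pex16 did not pass without WT replicate 3 (limma adjusted p 0.0667), KO replicate 2 (0.0623), KO replicate 3 (0.0646) or KO replicate 4 (0.05002). Pex11a, which elongates the organelle before it divides and is a known target of PPAR alpha, had 554.1, 856.9, 803.0 and 688.2 in WT and 1046.9, 1053.7, 1240.4 and 1422.6 in KO. It rose by 0.72 (SE 0.16, limma adjusted p = 0.0072) with no overlap.

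Of the matrix import genes, the receptor for the common signal and both docking genes rose, while the receptor for the rarer signal did not pass. Pex5, which binds the signal at the carboxyl end of most matrix proteins, had 1724.6, 2272.4, 2099.8 and 2117.0 in WT and 2783.2, 3038.8, 3449.3 and 3775.3 in KO. The groups were separate, with a log2 fold change of 0.66 (limma adjusted p = 0.0034, SE 0.12). Pex7, which binds the amino-terminal signal of a few enzymes, among them the thiolases, Phyh and Agps, had 559.6, 754.9, 658.2 and 568.3 in WT and 672.2, 651.2, 705.1 and 665.8 in KO. Its KO values lay inside the WT range (0.09, 95% interval -0.14 to 0.33, limma adjusted p = 0.497). The docking genes were higher in every KO library. Pex13 had 1096.2, 1596.4, 1277.3 and 1548.7 in WT and 2309.7, 2324.4, 2664.7 and 2312.7 in KO (0.81, SE 0.13, limma adjusted p = 0.0017). Pex14 had 748.5, 992.4, 829.9 and 1062.7 in WT and 1106.6, 1253.6, 1426.4 and 1505.0 in KO (0.55, SE 0.14, limma adjusted p = 0.014).

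Genes for recycling the import receptor changed less evenly. Pex6, the ATPase that pulls ubiquitinated Pex5 back into the cytosol, had 1319.1, 1231.9, 1332.1 and 1463.5 in WT and 1930.5, 1526.2, 2632.4 and 3312.0 in KO. The WT libraries were tight, whereas the KO libraries were spread widely, replicate 2 being the lowest and replicate 4 the highest (log2 fold change 0.75, SE 0.22, limma adjusted p = 0.024). Pex26, its membrane anchor, lay between 334.8 and 421.3 in WT, between 356.9 and 437.8 in KO, and did not pass (0.07, 95% interval -0.16 to 0.30). Pex10 and Pex2 encode RING subunits of the ligase that ubiquitinates Pex5. Pex10 had 189.0, 268.3, 194.0 and 258.4 in WT and 279.2, 294.0, 298.8 and 357.8 in KO, a small separation that only just passed (0.44, SE 0.15, limma adjusted p = 0.043). For Pex2 the values were 764.1, 834.7, 826.2 and 752.8 in WT and 840.0, 864.8, 919.0 and 840.4 in KO, so that the groups did not overlap although the gene did not pass (0.12, 95% interval -0.03 to 0.28, limma adjusted p = 0.181). Pex6 fell short of the threshold in limma when WT replicate 1 was left out (adjusted p 0.0528), WT replicate 2 (0.0534), WT replicate 3 (0.0544) or KO replicate 3 (0.0644), or with both WT replicate 4 and KO replicate 3 removed (0.0840). Pex10 did so without WT replicate 1 (0.1002), WT replicate 3 (0.114), KO replicate 1 (0.0584), KO replicate 2 (0.0672), KO replicate 3 (0.0778) or KO replicate 4 (0.101), with both WT replicate 4 and KO replicate 3 removed (0.0701), with no filter on low values (0.0527) and in edgeR's test (0.0513).

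Among the 22 enzymes, transporters and membrane proteins, 15 rose, 3 fell and 4 did not pass, with a median log2 fold change of 0.70. In all genes tested, 20.2% rose and 21.5% fell. Their summed normalized count lay between 68501.7 and 93724.4 in WT and between 122453.8 and 144939.4 in KO. The steepest rises were in membrane genes, the largest fall was in an acyl-CoA oxidase, and the ether lipid genes split. Replicate 1 was the lowest WT library for 16 of the 22. The highest WT library was replicate 2 for 8 of the 22, replicate 3, with the hepatocyte transcripts, for 7 (Ehhadh, Acaa1b, Abcd3, Cat, Pxmp2, Phyh and Amacr), replicate 4 for 4 and replicate 1 for 3. Per kilobase of merged exon length, the mean level was greatest for Cat (5559 in WT and 8600 in KO), Scp2 (3897 and 6148), Ech1 (2894 and 5068) and Hsd17b4 (2264 and 3695). At the low end were Pex7 (52.5 and 55.7), Pex26 (67.0 and 70.3) and Pex10 (69.0 and 93.2).

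**Figure D2:**
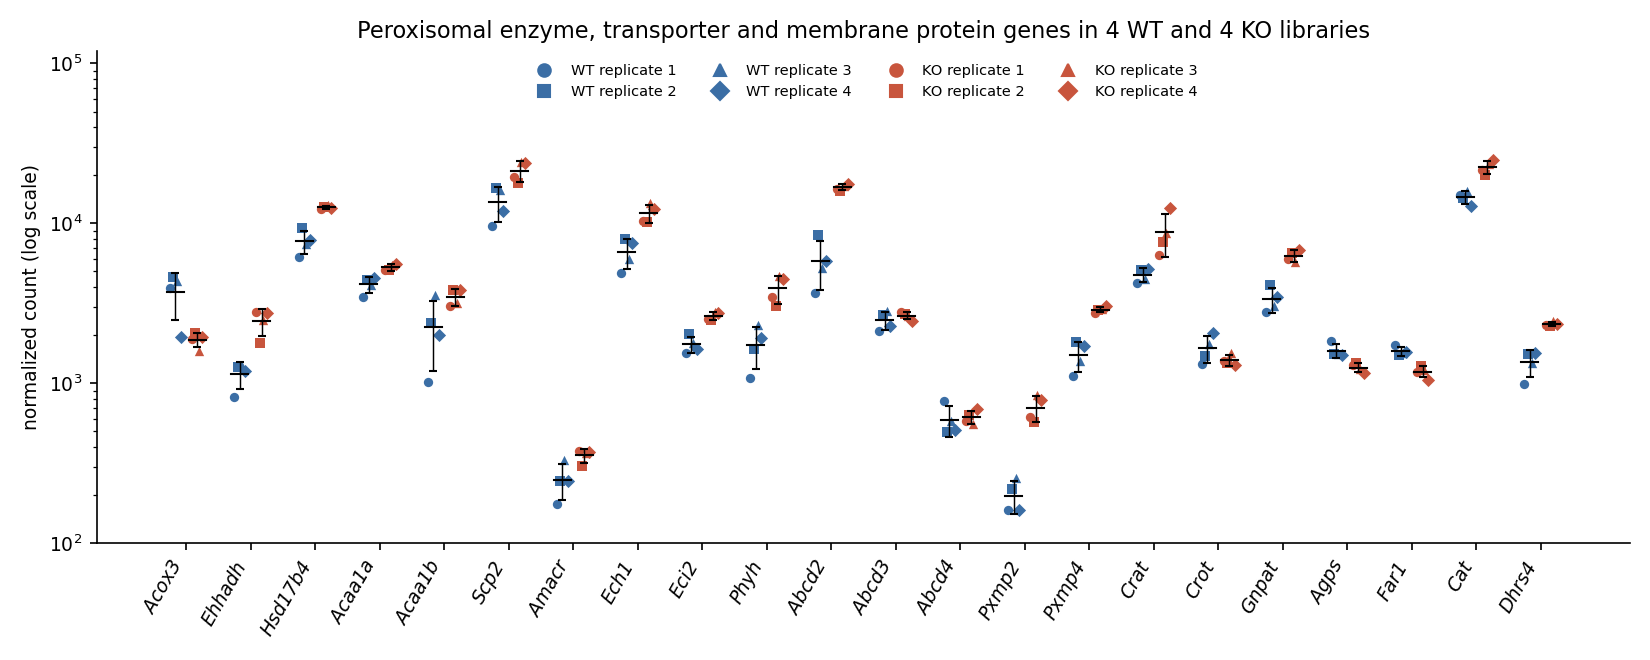
Normalized counts of the 22 enzyme, transporter and membrane protein genes (log axis) in 4 WT (blue) and 4 KO (red) libraries, marker shape giving the replicate number and black bars the mean with SD. Pxmp2 and Abcd2 show the widest gaps, and Acox3 shows WT replicate 4 among the KO libraries.

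Pxmp2, a channel of the peroxisomal membrane that lets small molecules through, changed most of all members. Its normalized counts were 161.4, 217.3, 254.4 and 160.1 in WT and 613.6, 576.0, 841.6 and 785.9 in KO. Every KO library was far above the highest WT library, and the log2 fold change was 1.83 (limma adjusted p = 0.00045, SE 0.19). The gene lies on chromosome 5 (110274282 to 110286186, minus strand), 14.5 Mb from Ccdc92, while Acox3 and Crot on that chromosome lie 89.2 and 115.8 Mb away. Pxmp4, another integral membrane protein of the organelle, had 1115.5, 1801.2, 1372.0 and 1701.3 in WT and 2749.9, 2877.3, 2910.8 and 3023.4 in KO. Its KO libraries were nearly equal and all above WT (0.97, SE 0.14, limma adjusted p = 0.0014).

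The fatty acyl transporters of the ABCD family did not move together. Abcd2, which carries very long and polyunsaturated acyl-CoA into the organelle (chromosome 15, 91145871 to 91191799, minus strand), had 3677.5, 8420.4, 5250.5 and 5793.0 in WT. In KO it had 16491.1, 15949.2, 17099.4 and 17652.8, a narrow band well above all WT libraries. The means were 5785 ± 1973 and 16800 ± 739 (SD, n = 4), and the log2 fold change was 1.60 (limma adjusted p = 0.0011, SE 0.22). Abcd3, a transporter of long and branched acyl-CoA, had 2127.3, 2657.1, 2813.7 and 2289.3 in WT and 2783.2, 2691.0, 2637.8 and 2460.7 in KO. These ranges overlapped (0.10, 95% interval -0.13 to 0.33, limma adjusted p = 0.433). Abcd4, whose product is now placed in lysosomes, where it exports cobalamin, lay between 498.1 and 779.7 in WT, between 558.9 and 686.4 in KO, and did not pass (0.07, 95% interval -0.27 to 0.41).

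In the beta-oxidation spiral, 4 of 6 genes rose and 1 fell, where 20.2% of all genes tested rose and 21.5% fell. Ehhadh, the L-bifunctional enzyme and a classical PPAR alpha target, had 819.2, 1270.4, 1280.1 and 1191.0 in WT and 2802.7, 1777.5, 2477.6 and 2751.7 in KO. All KO libraries were higher, with KO replicate 2 nearest to WT (1.10, SE 0.19, limma adjusted p = 0.0027). Hsd17b4, the D-bifunctional enzyme used for very long and branched chains, had 6181.8, 9328.2, 7465.4 and 7847.3 in WT and 12357.7, 12580.6, 12948.2 and 12423.4 in KO. The 4 KO values were almost the same, with a log2 fold change of 0.72 (limma adjusted p = 0.0026, SE 0.12). Scp2, whose products are a thiolase for branched chains and a sterol carrier protein, had 9640.1, 16571.5, 16101.3 and 11896.9 in WT and 19369.6, 17879.6, 24348.5 and 23928.8 in KO. The gap between the groups was small beside the spread in WT (0.68, SE 0.20, limma adjusted p = 0.024). Scp2 no longer passed without WT replicate 4 (limma adjusted p 0.0554), KO replicate 3 (0.0631) or KO replicate 4 (0.0604), with both WT replicate 4 and KO replicate 3 removed (0.121) and under quantile normalization (0.0709). A processed copy, Scp2-ps2, shares 29.7% of the 50-base windows of the Scp2 transcripts, and how reads shared between genes were counted is not given in the sources used here.

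The thiolases Acaa1a and Acaa1b, which cleave the chain at the end of each turn, are neighbouring paralogs on chromosome 9. Acaa1a (119339676 to 119350299, plus strand) had 3462.9, 4415.0, 4122.6 and 4577.7 in WT and 5079.1, 5086.3, 5484.1 and 5600.5 in KO. It rose by 0.37 on the log2 scale (SE 0.10, limma adjusted p = 0.019) with separate groups, a call lost without WT replicate 3 (limma adjusted p = 0.0517). Acaa1b (119148023 to 119157093, minus strand) had 1011.8, 2367.6, 3549.8 and 2008.4 in WT and 3027.9, 3825.8, 3183.8 and 3823.8 in KO. Its highest WT library, replicate 3, lay among the KO libraries, and it did not pass (0.76, 95% interval 0.01 to 1.52, limma adjusted p = 0.0966). That library is the one with the hepatocyte transcripts, which summed over 15 genes to 72648.7 there and to 275.0 to 638.6 in the other WT libraries. Without WT replicate 3 the log2 fold change of Acaa1b was 1.03 and passed (limma adjusted p = 0.0279), and the part of the hepatocyte transcripts in its WT level was not tested. Of the 50-base windows of the Acaa1b transcript, 30.5% also occur in Acaa1a, so their values are uncertain to the extent that reads were shared. The 250 bases before each start site (RefSeq, GRCm38.p6, Acaa1a chr9:119341044-119341293 on the plus strand and Acaa1b chr9:119157094-119157343 on the minus strand) are shown because the genes share transcript sequence. The Acaa1a window lies inside the GENCODE span given above, so the RefSeq start site used is not the GENCODE gene start. Capitals mark GGGCGG, the GC box, and CCAAT, each on either strand.
Acaa1a: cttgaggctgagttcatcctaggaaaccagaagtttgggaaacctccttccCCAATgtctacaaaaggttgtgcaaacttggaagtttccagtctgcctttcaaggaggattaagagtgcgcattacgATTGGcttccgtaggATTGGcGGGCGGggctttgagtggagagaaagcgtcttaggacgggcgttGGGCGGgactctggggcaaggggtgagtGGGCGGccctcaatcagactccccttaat
Acaa1b: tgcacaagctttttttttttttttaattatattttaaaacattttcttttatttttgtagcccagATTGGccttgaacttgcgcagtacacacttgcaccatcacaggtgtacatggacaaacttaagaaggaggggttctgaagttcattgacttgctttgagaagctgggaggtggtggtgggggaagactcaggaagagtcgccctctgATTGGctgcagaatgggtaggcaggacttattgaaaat
Both windows held CCAAT, 3 times in Acaa1a and 2 times in Acaa1b. Acaa1a also had 3 GC boxes, the nearest beginning 29 bases before the start site, and Acaa1b had 0. The GC content was 53.6% in Acaa1a and 41.6% in Acaa1b.

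Acox3, an acyl-CoA oxidase for branched chains, was the beta-oxidation gene that fell (chromosome 5, 35583040 to 35615352, plus strand). Its normalized counts were 3941.7, 4588.1, 4371.4 and 1933.5 in WT and 1897.2, 2054.3, 1595.1 and 1948.9 in KO. WT replicates 1 to 3 were well above the highest KO library, whereas WT replicate 4 lay within the KO range. The fitted change was -0.91 (SE 0.26, limma adjusted p = 0.022), and it missed the threshold when WT replicate 1 was left out (adjusted p 0.0576), WT replicate 2 (0.0533), WT replicate 3 (0.0619) or KO replicate 3 (0.0605). Without WT replicate 4 the change was -1.201. The 13 epididymis genes had a lower sum in every KO library. Within WT their sum was 54647.7, 115851.9, 103682.6 and 120080.3 in replicates 1 to 4. It was highest in replicate 4, where Acox3 was lowest, but Akr1b7 alone made up 80635.9 of that sum. Without Akr1b7, replicate 4 would hold the lowest WT sum. Single genes of the list went both ways in that library, which held the lowest WT value of 6 and the highest of 4. Of 2 genes singled out after their values were seen, Adam7 had 0.9 there, against 7804.6 to 19828.7 in WT replicates 1 to 3, and Akr1b7 had 80635.9, against 188.1 to 211.6. The part of epididymal RNA in the Acox3 result was not tested.

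**Figure D3:**
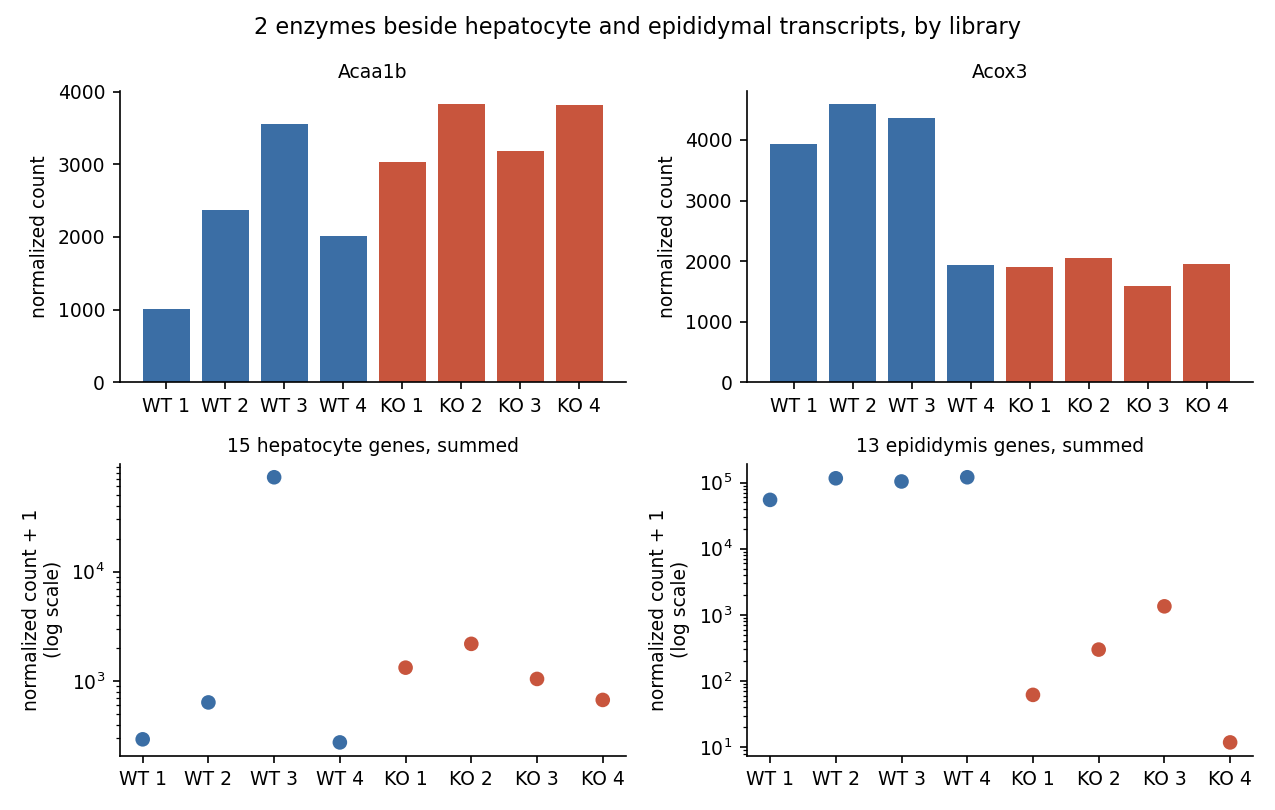
Acaa1b and Acox3 (bars, normalized count) above the sums of 15 hepatocyte genes and of 13 epididymis genes (points, normalized count plus 1, log axis), in each WT (blue) and KO (red) library. WT replicate 3 has the highest WT value of Acaa1b and of the hepatocyte sum. WT replicate 4 has the lowest WT value of Acox3 and the highest epididymis sum, of which Akr1b7 alone makes up 80635.9.

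Auxiliary oxidation genes rose in 4 of 4, where 20.2% of all genes tested rose. Phyh, which starts the alpha-oxidation of phytanic acid, had 1086.1, 1632.0, 2323.5 and 1922.3 in WT and 3449.7, 3043.9, 4675.8 and 4502.9 in KO, all above WT (1.2, SE 0.24, limma adjusted p = 0.0051). Ech1 and Eci2 move double bonds so that unsaturated chains can be oxidised, in peroxisomes and in mitochondria. Ech1 had 4922.3, 7978.0, 6003.3 and 7532.7 in WT and 10365.1, 10258.8, 13364.2 and 12315.5 in KO (0.82, SE 0.17, limma adjusted p = 0.0055). Eci2 had 1548.4, 2018.6, 1786.0 and 1638.6 in WT and 2518.9, 2490.1, 2784.0 and 2743.2 in KO (0.60, SE 0.10, limma adjusted p = 0.0019). Both were separate between the groups. Amacr, the racemase that readies branched chains for oxidation, was the weakest call. It had 175.2, 246.2, 329.5 and 246.3 in WT and 378.1, 301.7, 367.6 and 369.9 in KO, KO replicate 2 lying below WT replicate 3 (0.53, SE 0.18, limma adjusted p = 0.045). It kept its call only without WT replicate 3 or KO replicate 2 among the settings that left out 1 library. Without WT replicates 1, 2 or 4 its limma adjusted p was 0.0777, 0.0765 and 0.0750, and without KO replicates 1, 3 or 4 it was 0.1002, 0.0966 and 0.0933. It also missed the threshold with both WT replicate 4 and KO replicate 3 removed (0.143), with no filter (0.0527), with the replicate block (0.0678) and in edgeR's test (0.0531).

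Carnitine acyltransferases, which convert shortened acyl-CoA into forms that leave the organelle, went apart. Crat, the acetyl-carnitine enzyme, had 4230.7, 5094.0, 4496.7 and 5201.3 in WT and 6376.5, 7610.6, 8706.7 and 12416.1 in KO, whose replicate 4 was far above the others (0.84, SE 0.19, limma adjusted p = 0.0088). Crot, the medium-chain enzyme, had 1327.4, 1480.0, 1761.0 and 2049.6 in WT and 1387.0, 1341.6, 1548.9 and 1306.1 in KO and did not pass (-0.23, 95% interval -0.54 to 0.08, limma adjusted p = 0.205). Catalase (Cat), which removes hydrogen peroxide, had 14958.7, 14474.1, 15923.1 and 12742.4 in WT and 21411.6, 20023.7, 23602.6 and 24846.8 in KO. Its groups were well separated, with a log2 fold change of 0.63 (limma adjusted p = 0.0031, SE 0.11). Dhrs4, a carbonyl reductase that uses NADPH, had 993.5, 1530.0, 1339.5 and 1536.5 in WT and 2325.8, 2277.4, 2450.8 and 2337.0 in KO (0.82, SE 0.14, limma adjusted p = 0.0023).

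The ether lipid genes split, with the acyltransferase higher and the other 2 lower in KO. Gnpat, which adds the acyl group to dihydroxyacetone phosphate inside the organelle, had 2785.9, 4100.6, 3030.9 and 3453.2 in WT and 6007.6, 6558.6, 5704.5 and 6807.2 in KO. All KO libraries were above WT, with means of 3343 ± 576 and 6269 ± 504 (SD, n = 4) and a log2 fold change of 0.92 (limma adjusted p = 0.0011, SE 0.13). Agps, which swaps that acyl group for an alkyl group, had 1824.5, 1533.9, 1529.8 and 1491.6 in WT and 1299.7, 1328.8, 1222.2 and 1153.3 in KO. Far1, which makes the fatty alcohol for that step and sets its rate, had 1730.1, 1502.1, 1538.2 and 1560.8 in WT and 1183.6, 1287.8, 1203.9 and 1055.1 in KO. Both lay below WT in all KO libraries, where 21.1% of all genes do so. The fitted changes were -0.35 for Agps (SE 0.09, limma adjusted p = 0.013) and -0.42 for Far1 (SE 0.08, limma adjusted p = 0.0046). The directions and calls of these genes held under all 16 alternatives tried. Gm16163 on the same strand overlaps 7.81% of the Gnpat exon length and 2810004N23Rik on the other strand 2.45%, and whether counting used strand is not given in the sources used here.

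The upstream windows of these 3 genes are shown because they carry opposite changes within one pathway. They are the 250 bases before the start site in RefSeq's GRCm38.p6 annotation, all on the plus strand, at chr8:124862783-124863032 for Gnpat, chr2:75831927-75832176 for Agps and chr7:113513584-113513833 for Far1. Capitals mark GGGCGG and CCAAT on either strand.
Gnpat: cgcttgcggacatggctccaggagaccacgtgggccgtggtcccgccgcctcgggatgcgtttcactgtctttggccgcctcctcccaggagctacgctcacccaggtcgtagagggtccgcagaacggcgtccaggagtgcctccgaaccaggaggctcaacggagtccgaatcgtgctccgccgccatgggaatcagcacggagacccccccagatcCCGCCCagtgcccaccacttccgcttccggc
Agps: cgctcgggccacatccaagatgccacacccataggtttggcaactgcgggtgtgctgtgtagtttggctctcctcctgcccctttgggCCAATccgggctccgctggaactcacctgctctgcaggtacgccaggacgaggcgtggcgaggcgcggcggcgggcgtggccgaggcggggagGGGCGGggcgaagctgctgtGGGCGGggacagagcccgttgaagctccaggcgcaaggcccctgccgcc
Far1: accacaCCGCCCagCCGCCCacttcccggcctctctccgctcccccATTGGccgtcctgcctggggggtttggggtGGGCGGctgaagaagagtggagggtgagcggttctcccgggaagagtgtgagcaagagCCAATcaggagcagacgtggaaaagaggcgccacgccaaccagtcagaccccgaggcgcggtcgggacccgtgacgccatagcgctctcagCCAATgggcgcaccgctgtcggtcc
Each window is GC-rich (67.6%, 70% and 67.6%). Gnpat had 1 GC box and 0 CCAAT, Agps had 2 and 1, and Far1 had 3 and 3.

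No upstream window was found for Pex2, Pex19, Amacr, Abcd2, Abcd4, Hsd17b4, Pxmp2 and Crat. Pxmp2 and Abcd2, the members that rose most, were therefore not searched. Windows were found for 26 of the 34 members, 30 windows in all. GGGCGG occurred in 63.3% of them, in 53.4% of the 15602 windows of tested genes and in 32.7% of all 32851 windows. CCAAT occurred in 43.3%, 34.5% and 33.8%. The direct repeat bound by PPAR and RXR, AGGTCA, any base, AGGTCA, was searched on both strands with up to 2 mismatches outside that base. It occurred in 1 of the 30 windows, that of Cat, beginning 204 bases before the start site. It was in 2.58% of the windows of tested genes and in 3.24% of all windows. TGACGTCA was in 3.33% of member windows, 2.34% of those of tested genes and 1.55% of all. CACGTG was in 3.33%, 7.81% and 6.02%, and TATAAA in 10%, 7.18% and 12.4%. These are matches of letters within 250 bases and say nothing of sites farther away. Some windows, those of Acaa1a, Scp2 and Eci2 among them, lie inside the GENCODE span of their gene. The Cat window (chr2:103485154-103485403, minus strand) follows, with capitals for that repeat, GGGCGG and CCAAT.
Cat: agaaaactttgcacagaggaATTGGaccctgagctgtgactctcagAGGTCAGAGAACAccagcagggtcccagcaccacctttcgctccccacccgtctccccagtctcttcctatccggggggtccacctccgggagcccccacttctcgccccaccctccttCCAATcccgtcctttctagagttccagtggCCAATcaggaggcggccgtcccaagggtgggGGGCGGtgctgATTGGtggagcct

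**Figure D4:**
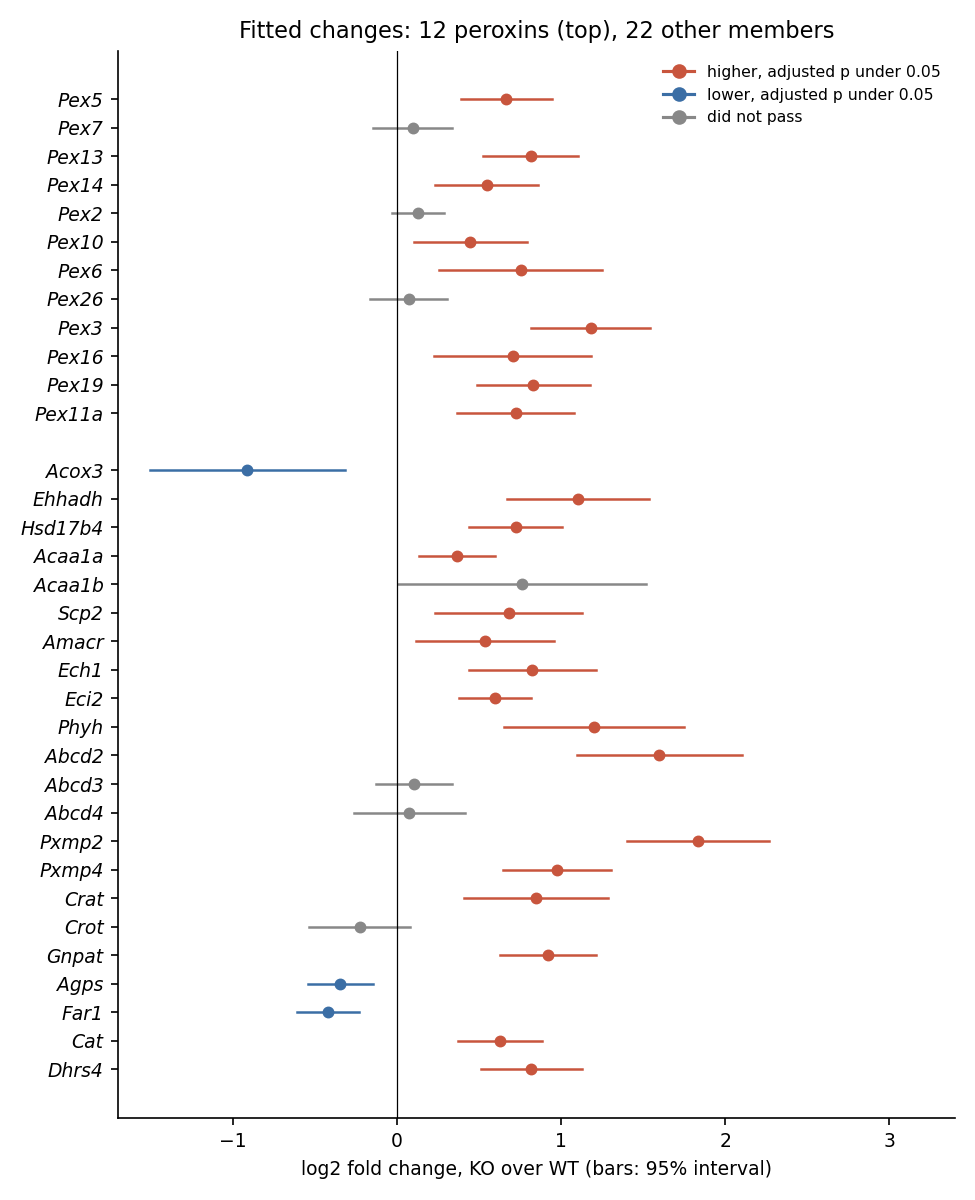
Fitted log2 fold changes of all 34 members, KO over WT, with 95% intervals, red for genes higher and blue for genes lower at an adjusted p under 0.05 and grey for those that did not pass. Pxmp2 at 1.83 and Abcd2 at 1.60 lie farthest to the right, and Acox3 at -0.91 farthest to the left.

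Ratios within a library ask whether related members moved unequally, and they do not depend on library scaling. The Abcd2 to Abcd3 ratio was 1.73, 3.17, 1.87 and 2.53 in WT and 5.92, 5.93, 6.48 and 7.17 in KO. Crat to Crot was 3.19, 3.44, 2.55 and 2.54 in WT and 4.60, 5.67, 5.62 and 9.51 in KO. Pex5 to Pex7 was 3.08, 3.01, 3.19 and 3.73 in WT and 4.14, 4.67, 4.89 and 5.67 in KO. In each of these 3 pairs all KO libraries were above all WT libraries, with mean log2 differences of 1.495, 1.07 and 0.57. The two-sided exact permutation p was 0.0286 for each, the smallest that 70 splits can give, and 0.0476 after Benjamini-Hochberg adjustment over the 5 pairs. Ehhadh to Hsd17b4 did not pass (difference 0.38, exact permutation p = 0.0857, adjusted 0.107), and without KO replicate 2 it did (0.53, exact permutation p = 0.0286, adjusted 0.0357). Acaa1a to Acaa1b did not pass either (-0.40, exact permutation p = 0.314, adjusted 0.314). It ran from 1.16 to 3.42 in WT, the lowest being WT replicate 3, without which the difference was -0.66 and passed (exact permutation p = 0.0286, adjusted 0.0357).

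**Figure D5:**
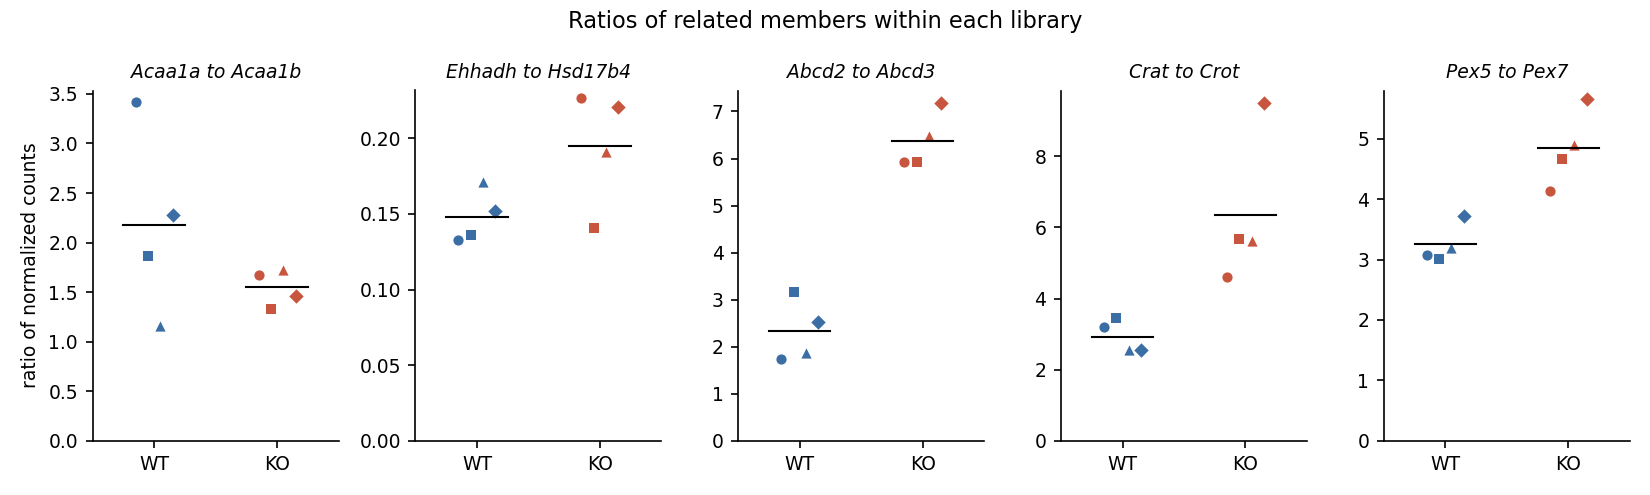
Ratio of normalized counts of 5 pairs of related members in 4 WT (blue) and 4 KO (red) libraries, with the group mean as a black bar and axes from 0. The groups are separate for Abcd2 to Abcd3, Crat to Crot and Pex5 to Pex7 and overlap for the other pairs.

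For comparison with the counts that follow, 20.2% of the 17798 genes tested rose and 21.5% fell. Other peroxisomal genes, a list of 48 outside the 34, had 40 members that entered the test. Of these, 22 rose, 1 fell and 17 did not pass, with a median log2 fold change of 0.40. Those with the smallest p included Lonp2, the protease of the peroxisomal matrix, which rose by 0.97 (SE 0.12, limma adjusted p = 0.00067). Acad11, an acyl-CoA dehydrogenase, had 2204 ± 514 in WT and 6203 ± 1147 in KO (SD, n = 4) and rose by 1.505 (limma adjusted p = 0.00088, SE 0.19). Gstk1, a glutathione transferase found in peroxisomes and mitochondria, rose by 1.12 (limma adjusted p = 0.00096), Hsdl2, a dehydrogenase-like protein, by 0.99 (0.0012), and Mpv17, a relative of Pxmp2 in the inner mitochondrial membrane, by 0.61 (0.00069). The fission factors that peroxisomes share with mitochondria did not pass. Of Dnm1l, Fis1 and Mff, limma, edgeR and DESeq2 each called 0 (0 at an unadjusted p under 0.05), with log2 fold changes of 0.02, 0.10 and -0.01. Among 6 PPAR regulators, 2 rose, Pparg (1.00, SE 0.14, limma adjusted p = 0.0011) and its partner Rxra (0.71, SE 0.10, limma adjusted p = 0.0012). Ppara, Ppard, Ppargc1a and Ppargc1b did not pass. Ppara lay between 77.1 and 232.1 in WT and between 167.5 and 225.6 in KO (0.59, limma adjusted p = 0.149).

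Set beside other lists, the median change of the 12 peroxins (0.68) and of the 22 other members (0.70) was near that of 17 tested genes of mitochondrial fatty acid oxidation (0.58, of which 15 rose and 1 fell). Over all genes tested, 20.2% rose and 21.5% fell. The median of 20 adipocyte markers was 1.53. Pxmp2 and Abcd2 alone among the 34 exceeded that adipocyte median. The differences between these medians were not tested.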

How the data were processed

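RNA was measured in 4 WT and 4 KO libraries, and each of the 8 columns carried the title of 1 sample. The authors deposited a normalized signal per gene, counts divided by a factor per library. Per the submitters' processing notes, the tools were STAR 2.7.7 and DESeq2 and the build was GRCm38.p6, with no roles stated. For the counter, its strand setting, annotation and filters, the entry is: not given in the sources used here. Of the values above 0, 100.0% were whole multiples of 1 step per library (tolerance 0.01 of a read), which gave back whole reads. Of the identifiers, 24802 of 24821 matched GENCODE M21.

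The members, lists and tests were chosen with earlier results of these data known. The test took 17798 genes that reached a normalized count of 10 in 4 or more libraries. It was limma 3.58.1 (R 4.3.3), with a trended, robust prior variance and no covariate, after log2 of the normalized count with a pseudocount of 1. All 34 members entered, the lowest at 160.1 in its lowest library. The fit was tested on simulated data, where it recovered 20 of 50 genes changed 1.5-fold and 42 of 50 changed 2-fold. It called 3 of 17598 unchanged genes. The simulated spread was set and not taken from these libraries, so these shares need not hold here. The count models edgeR 4.0.16 and DESeq2 1.42.0 on the recovered reads, other pseudocounts (0.1 and 5), no filter, quantile normalization, a replicate block and left-out libraries were alternatives. Ratios were compared with exact permutation tests. All members are named. Of other lists, up to 6 genes past the test were to be named by smallest p, and some list members are counted and not reported by name here. The hepatocyte list was added after the values had been seen. Depth came to 23681088 reads or more per library, so counting error is small beside the spread between libraries. No 2 libraries of one group were alike within sampling noise (chi-square per degree of freedom between 27.0 and 453.3).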

Additional observations from a re-analysis of the deposited data

Results flagged for a closer look

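In 4 of 68 groups of 4 libraries (34 members, WT and KO), 1 library stood apart from the other 3 by Dixon's criterion on the log2 scale. Chance flags about 1 in 20 groups. Pex13 was highest in KO replicate 3, at 2664.7, with the other KO libraries between 2309.7 and 2324.4. Ehhadh was lowest in WT replicate 1, at 819.2, with the others between 1191.0 and 1280.1. Amacr was lowest in KO replicate 2, at 301.7, below the highest WT library. Agps was highest in WT replicate 1, at 1824.5, with the others between 1491.6 and 1533.9.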

How the results depend on the processing

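None of the 34 members changed direction under any of 16 alternatives. Of 27 called members, 20 kept their call under all of them. The 7 that did not were Pex6, Pex10, Pex16, Acox3, Acaa1a, Scp2 and Amacr, and under the replicate block the only member to change was Amacr (limma adjusted p = 0.0678). Of the 7 not called, 6 stayed so and Acaa1b passed without WT replicate 3. The cause was not tested. Peroxins higher numbered 6 to 9 with 1 library left out (6 without WT replicate 3 or KO replicate 3) and 7 without WT replicate 4 and KO replicate 3 together. Enzymes higher numbered 13 to 15 and lower 2 to 3. Same-numbered WT and KO libraries did not deviate together (correlations -0.143, 0.051, -0.041 and 0.172 over genes), so the numbers were not taken as pairs. With the replicate block, limma called 6266 genes in place of 7423. Quantile normalization shifted the median over all genes from -0.01 to 0.10 (log2) and the split of calls from 3592 higher and 3831 lower to 4593 and 3257. By a paired sign-flip test as replicate block, the differences of 1.495 (Abcd2 to Abcd3), 1.07 (Crat to Crot) and 0.57 (Pex5 to Pex7) had an exact p of 0.125, the smallest that 4 pairs allow. Without WT replicate 4 and KO replicate 3 together they were 1.54, 1.05 and 0.63, with an exact permutation p of 0.1, the smallest that 3 against 3 allow. With 1 library left out, the differences ran from 1.37 to 1.66, 0.86 to 1.21 and 0.49 to 0.64. Ehhadh to Hsd17b4 ran from 0.30 to 0.53 and Acaa1a to Acaa1b from -0.66 to -0.15.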

Other observations

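Several peroxisomal genes known mainly from liver were highest in WT replicate 3, and Uox is also 1 of the 15 hepatocyte genes of the report. Uox, urate oxidase, had a normalized count of 1523.3 there, 0.9 to 21.2 in the other WT libraries and 1.2 to 78.1 in KO. Slc27a2, a very long chain acyl-CoA synthetase, had 1176.2, against 17.4 to 76.9 and 2.4 to 124.1. Hao1, a hydroxyacid oxidase, had 172.7, against 2.8 to 7.3 and 0.0 to 4.6. Agxt, an aminotransferase that clears glyoxylate, had 150.4, against 0.0 to 1.0 and 0.0 to 2.3. Baat, which joins bile acids to amino acids, had 156.0, against 0.0 to 1.9 and 0.0 to 5.1. Dao, the D-amino acid oxidase of peroxisomes, was instead highest in KO replicate 1 (437.8) and KO replicate 2 (139.3), with 0.0 in KO replicates 3 and 4 and 1.9 to 56.7 in WT.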
